A study of Homo sapiens with 12 samples.

Results

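The 52 genes described here are interferon-stimulated genes outside the IFIT family, from the sensors of foreign RNA to the factors that carry the interferon signal and the antiviral proteins that it induces. They were listed by name and matched to the gene IDs of the count files by symbol. The rule used no measured value, but earlier results of these data were known when the list was made. They are 52 of the 60617 genes counted, and 51 of them had enough counts to be tested.

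Interferons bind receptors at the cell surface, and the receptor kinases activate STAT proteins, among them STAT2. A complex that holds STAT2 and IRF9 binds the interferon-stimulated response element (ISRE) in the promoters of target genes, and the gamma-activated site (GAS) is the element of the response to interferon gamma. Many of the targets also have a basal level that is kept up without added interferon. Viperin, the protein of RSAD2, is itself an interferon-induced antiviral enzyme.

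Libraries of mRNA were sequenced from 12Z, an epithelial line from human endometriosis that was immortalized. There were 4 groups with 3 libraries each. Viperin + Insulin cells carried pCAG Viperin and received 100 nM insulin for 24 h, Viperin cells carried pCAG Viperin and received vehicle, Insulin cells carried pCAG empty vector and received 100 nM insulin, and Control cells carried pCAG empty vector and received vehicle. The pCAG plasmids drive expression from a strong constitutive promoter. All cells were transiently transfected and were without serum during the treatment. No group received interferon, so the comparisons ask whether insulin, or Viperin made from a plasmid, moved these genes from their basal level.

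Promoter stretches are shown for 8 members, and only members with an ISRE core were shown. Of these members, 5 are called below and 3 differed widely between libraries or ranked among the most abundant. The stretches were taken from RefSeq on GRCh38.p14. RefSeq holds a window of 300 bases around at least 1 start site for 41 of the 52 members. Each stretch runs 5′ to 3′ on the strand of its gene and ends upstream of the start, and capitals mark the ISRE core, searched as GAAANNGAAA on both strands (TTTCNNTTTC on the other), with overlapping matches joined.
IFITM1 (chr11:313990-314019, plus strand): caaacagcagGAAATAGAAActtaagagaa
IFITM3 (chr11:320876-320922, minus strand): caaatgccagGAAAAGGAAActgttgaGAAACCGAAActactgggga
IFI44 (chr1:78649761-78649788, plus strand): gcacactgagTTTCAGTTTCctttctct
SAMD9 (chr7:93118096-93118125, minus strand): tctgagaaatGAAACTGAAAccaaacctat
TAP1 (chr6:32853813-32853848, minus strand): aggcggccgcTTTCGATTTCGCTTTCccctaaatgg
BST2 (chr19:17405735-17405770, minus strand): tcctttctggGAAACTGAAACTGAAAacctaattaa
IFI6 (chr1:27672266-27672358, minus strand): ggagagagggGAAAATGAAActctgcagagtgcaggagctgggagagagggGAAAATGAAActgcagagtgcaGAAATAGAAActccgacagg
ISG15 (chr1:1013374-1013409, plus strand): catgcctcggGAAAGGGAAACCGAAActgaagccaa

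The first base of the printed core lay 40 bases upstream of the start in IFITM1, 18 bases in IFI44 and 136 bases in SAMD9. From another RefSeq start of IFI44 the same core lay 60 bases upstream. The bases after the IFI44 start used here matched no GENCODE transcript of the gene. BST2, TAP1 and ISG15 carried 2 overlapping cores each, and IFI6 carried 3 separate ones. The window of another RefSeq start of TAP1 held no ISRE core. A further core of IFITM1 runs across the start and is not shown. Of the 41 members with a window, 27 (65.9%) held an ISRE core, against 1195 of 27305 genes with a window (4.38%). The GAS core TTCNNNGAA was in 15 members (36.6%), against 9.38% of genes. Of the members called below, 8 had a window and 5 of these held an ISRE core, and STAT2, RIGI and ADAR were the 3 without one. Other members with the core included DDX60, IFIH1, EIF2AK2, OAS3, GBP1, PLSCR1 and PARP9, and others without it included IRF1, IFI16, OAS1 and XAF1. GBP2, IRF2 and UBA7, which are called below, had no entry. A match describes letters in the window and was not tested as a binding site.

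The libraries held 25979022 to 46889002 read pairs assigned to genes. Reads that mapped to more than 1 place made up 9.44% to 13.9% of reads, the most in Control 1, and replicate libraries of every group differed by more than sampling noise. RSAD2, the gene on the plasmid, had 384 to 665 CPM (counts per 1000000 assigned pairs, with TMM library sizes) in the 6 Viperin plasmid libraries, against 2.28 to 5.19 CPM in the 6 empty vector libraries, which matched the labels. Keratins KRT8, KRT18 and KRT19 were abundant, but the epithelial genes EPCAM (2 to 39 counts) and CDH1 (24 to 66 counts) were low and the mesenchymal genes VIM and COL1A1 were high. Of 10 immune cell markers 8 had at most 10 counts in every library, CLEC4C and IL3RA had 0 counts, and the exceptions were PTPRC (16 to 52 counts) and CD14 (127 to 258 counts). In bulk RNA, fewer cells of a type cannot be told apart from less RNA per cell. The libraries are described as independent experiments, and p-values measure the spread between them.

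Without added interferon, most of the 52 genes were expressed. Per length, LGALS3BP, a secreted glycoprotein, was the most abundant with 329 ± 18.7 TPM (transcripts per 1000000, SD over 12 libraries). IFITM3, a membrane protein that blocks virus entry, had 209 ± 9.87 TPM, and ISG15, a ubiquitin-like modifier, had 116 ± 19.4 TPM. IFI6 (105 ± 19.7 TPM) and ADAR (85.6 ± 5.63 TPM) came next. From ISG15 to ADAR the ranges overlapped over the libraries, 89.2 to 149 TPM, 65.6 to 132 TPM and 75.5 to 96.6 TPM, while LGALS3BP (299 to 354 TPM) and IFITM3 (193 to 224 TPM) stood clear of them and of each other. At the other end were MX2 (1.19 TPM), IFI44L (0.213 TPM), IFI27 (0.195 TPM) and the chemokines CXCL10 and CXCL11.

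**Figure D1:**
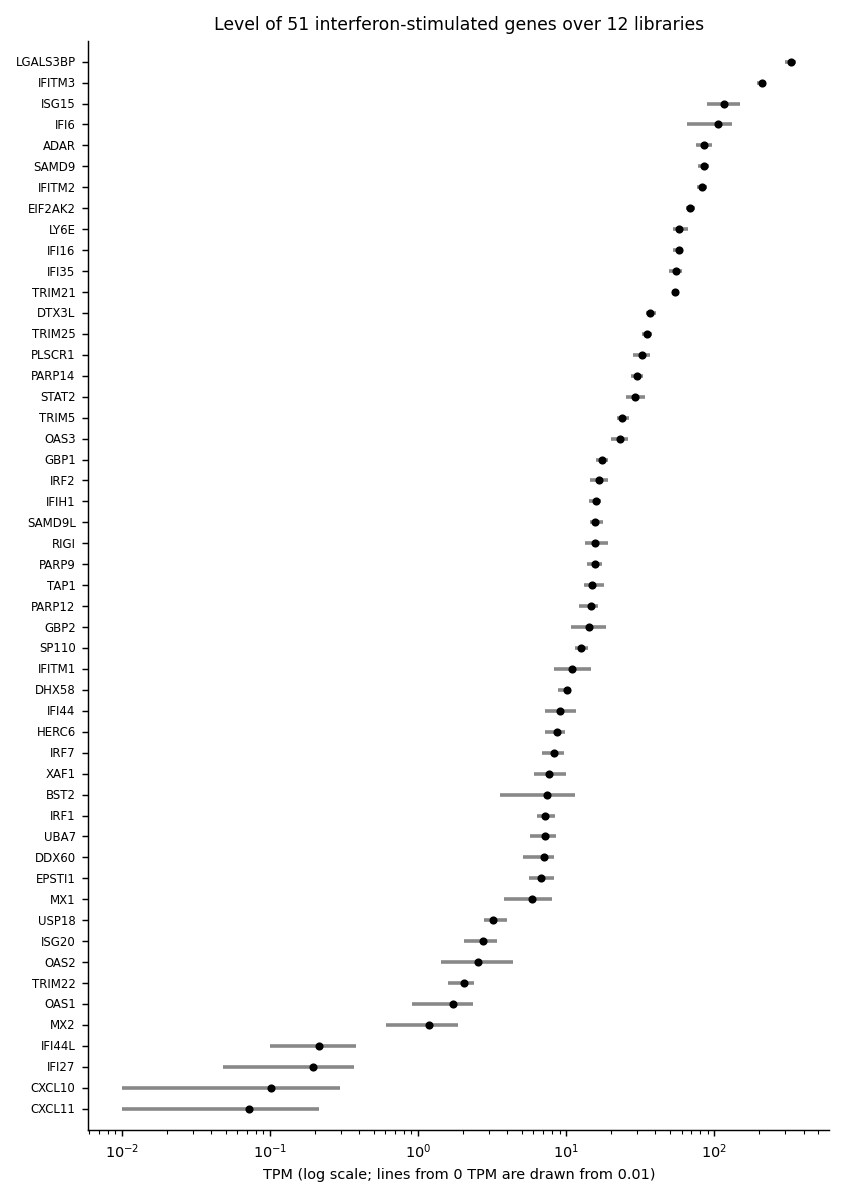
Level of the 51 members with any count, in TPM on a log scale, in falling order. Points are means over 12 libraries and lines run from the lowest to the highest library. LGALS3BP (329 TPM) leads and the chemokines CXCL10 (0.102 TPM) and CXCL11 (0.0721 TPM) are last.

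CXCL10 and CXCL11, which draw T cells to sites of interferon signalling, had 0 to 4 and 0 to 3 counts, so that both stayed near the limit that a count of 0 allows (3 counts, or 0.064 to 0.115 CPM by library). IFI27 had 2 to 16 counts and IFI44L 8 to 36 counts, and changes of these 4 genes were hardly detectable at this depth. IRF9, the DNA-binding partner of STAT2 (chr14:24161234-24168043 on hg38, GENCODE 44), was listed at 0 in all 12 libraries and on both strands. An overlapping gene on its strand, which covers 23.9% of its exon bases, was at 0 as well. It was not tested, and why it was at 0 cannot be read from these files.

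The 51 tested members were compared in 7 ways with edgeR, at an adjusted p under 0.05 over 23041 genes, and 11 members were called in at least 1 comparison. In Viperin against Control, 1 member was called (1.96%), while 2.29% of all genes were. In Insulin against Control and in Viperin + Insulin against Viperin, 2 members (3.92%) were called in each, against backgrounds of 5.49% and 4.56%. In Viperin + Insulin against Insulin no member was called, against 3.08% of genes, although 11 members (21.6%) had an unadjusted p under 0.05, against 14.2% of genes. DESeq2 called 3 members, DDX60, ISG15 and RIGI, all lower, and 2.51% of genes. The fit of only the libraries of these 2 groups called 8 members, all lower, and 7.65% of genes. In Viperin + Insulin against Viperin, 21.6% of members also had an unadjusted p under 0.05, against 15.5% of genes. The shares were 11.8% against 13.5% in Viperin against Control and 9.8% against 17.3% in Insulin against Control. With insulin over both plasmids 7 members (13.7%) were called and the background was 11.7%. With the Viperin plasmid over both insulin states 5 members (9.8%) were called and the background was 7.96%. In the fit of all 4 groups, the share of members called lay within 3.08 percentage points of that of all genes in each of these comparisons.

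The changes were small. The median log2 fold change of the members was 0.008 with insulin over both plasmids and -0.034 with the Viperin plasmid over both insulin states. The medians of all genes were -0.002 and 0.001. Rises and falls cancel in these medians. Without regard to sign, the median size was 0.097 with insulin and 0.078 with the plasmid, against 0.106 and 0.097 for all genes. With the plasmid 34 of the 51 members had a negative and 17 a positive log2 fold change, and with insulin 25 were negative and 26 positive. Of all 23041 genes tested, 11444 were negative with the plasmid and 11650 with insulin. The median standard error of a member was 0.05 in both comparisons. With the plasmid no member passed a log2 fold change of 0.5 in either direction, and with insulin GBP2 and the barely counted IFI27 did.

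**Figure D2:**
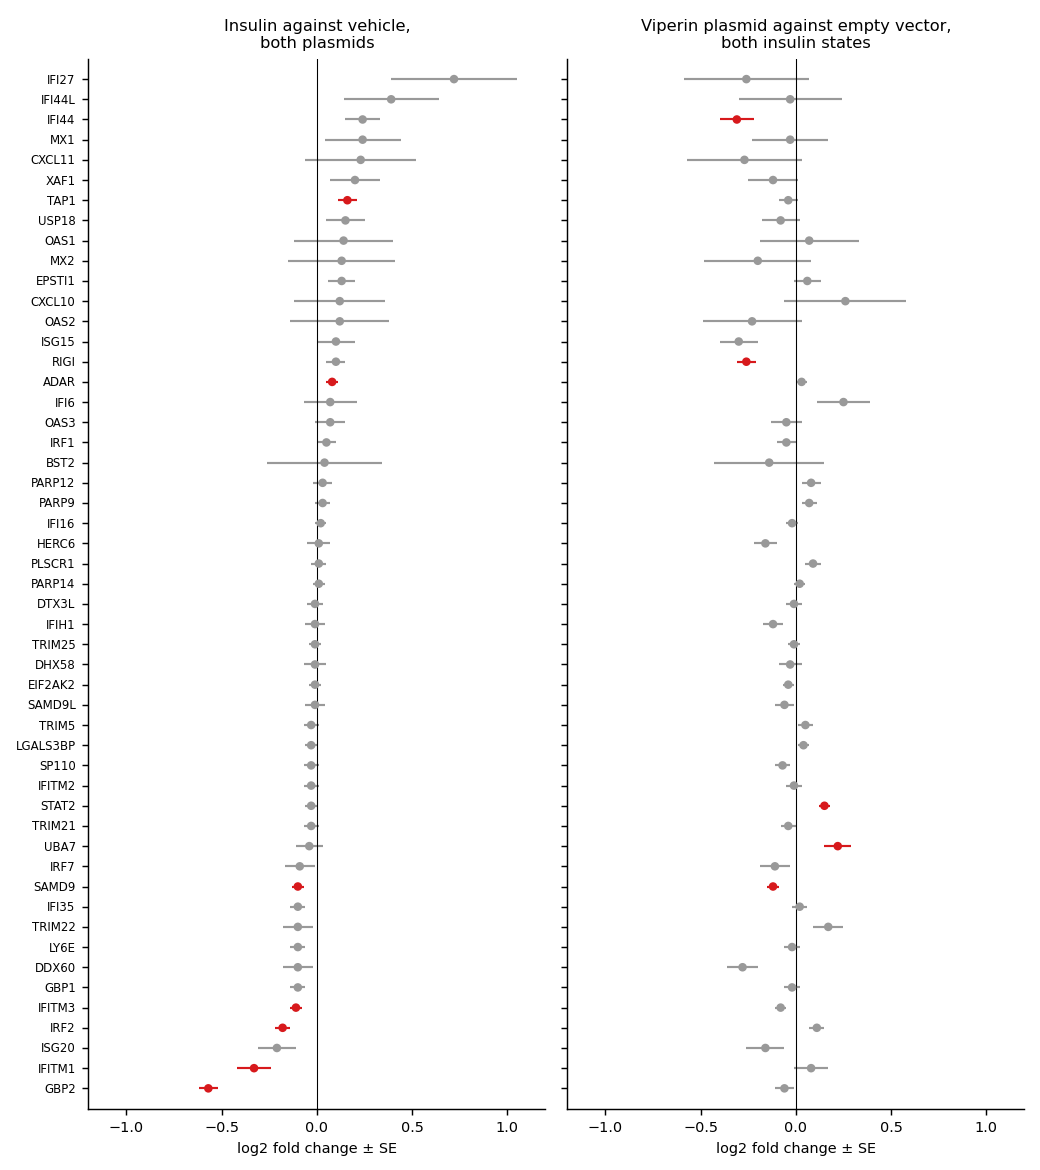
Log2 fold change (points) with its standard error (lines) of the 51 tested members, from edgeR, for insulin against vehicle over both plasmids (left) and for the Viperin plasmid against the empty vector over both insulin states (right). Red marks an adjusted p under 0.05, which holds for 7 members on the left, with GBP2 lowest at -0.57, and for 5 on the right.

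GBP2 (chr1:89106132-89150456 on hg38, minus strand), an interferon-induced GTPase that acts on vacuoles of pathogens, fell with insulin under both plasmids. It had 21.5, 19.7 and 21.5 CPM in Viperin + Insulin, against 30.0, 30.6 and 26.9 CPM in Viperin. It had 22.1, 19.8 and 19.7 CPM in Insulin, against 29.1, 34.4 and 33.9 CPM in Control. All 6 insulin libraries lay below all 6 vehicle libraries. With insulin its log2 fold change (± SE here and below) was -0.48 ± 0.06 under the Viperin plasmid (adjusted p = 1.25e-07, edgeR) and -0.66 ± 0.06 under the empty vector (adjusted p = 7.68e-12), where it ranked 4 among all genes by p. Over both plasmids it averaged 20.7 ± 1.12 CPM in insulin libraries and 30.8 ± 2.88 CPM in vehicle libraries (SD, n = 6 each), a fold of 0.673 (adjusted p = 5.17e-16). The difference between its insulin responses was 0.19 ± 0.09 (adjusted p = 0.87). Of its exon bases, 8.6% lie under another gene on the same strand, GBP7.

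The other GTPases were not called. GBP1, a near relative of GBP2, had a log2 fold change of -0.10 ± 0.04 with insulin (adjusted p = 0.132, edgeR). MX1 and MX2, which trap viral particles, had 0.24 ± 0.20 and 0.13 ± 0.28, and their large errors came with the wide spread between libraries that is described below.

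Among the transcription factors, STAT2 (chr12:56341597-56360203, minus strand), a subunit of the ISRE-binding complex, rose with the Viperin plasmid. It had 79.3, 70.9 and 71.5 CPM in Viperin, against 65.9, 62.5 and 62.9 CPM in Control. It had 70.1, 66.9 and 69.7 CPM in Viperin + Insulin, against 65.6, 65.6 and 64.3 CPM in Insulin. All 6 Viperin plasmid libraries were above all 6 empty vector libraries, and Viperin 1 was the highest. The log2 fold change was 0.22 ± 0.04 in Viperin against Control (adjusted p = 0.00198, edgeR), 0.08 ± 0.04 in Viperin + Insulin against Insulin (adjusted p = 0.406) and 0.15 ± 0.03 over both insulin states (adjusted p = 6.15e-04). Without Viperin 1 the first of these was not called (adjusted p = 0.0709). Its insulin responses differed by -0.13 ± 0.06 between plasmids, which was not called (adjusted p = 0.837).

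IRF2 (chr4:184385702-184474558, minus strand), which binds the same elements as the activator IRF1 and mostly represses them, fell with insulin. It had 26.7, 28.9 and 27.2 CPM in Viperin + Insulin, against 30.4, 31.8 and 30.4 CPM in Viperin. It had 24.4, 25.1 and 26.4 CPM in Insulin, against 29.9, 27.4 and 29.5 CPM in Control. The groups did not overlap within either plasmid. Over both plasmids the log2 fold change was -0.18 ± 0.04 (adjusted p = 0.0011, edgeR), -0.19 ± 0.06 in Insulin against Control (adjusted p = 0.0353) and -0.16 ± 0.06 in Viperin + Insulin against Viperin (adjusted p = 0.0872). The call in Insulin against Control was lost without Control 1, Control 3, Insulin 1 or Insulin 2 (adjusted p = 0.111, 0.114, 0.143 and 0.128). IRF1 had 0.05 ± 0.05 with insulin and -0.05 ± 0.05 with the plasmid, and IRF7, the inducer of interferon genes, had -0.09 ± 0.08 and -0.11 ± 0.08, none of which was called.

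**Figure D3:**
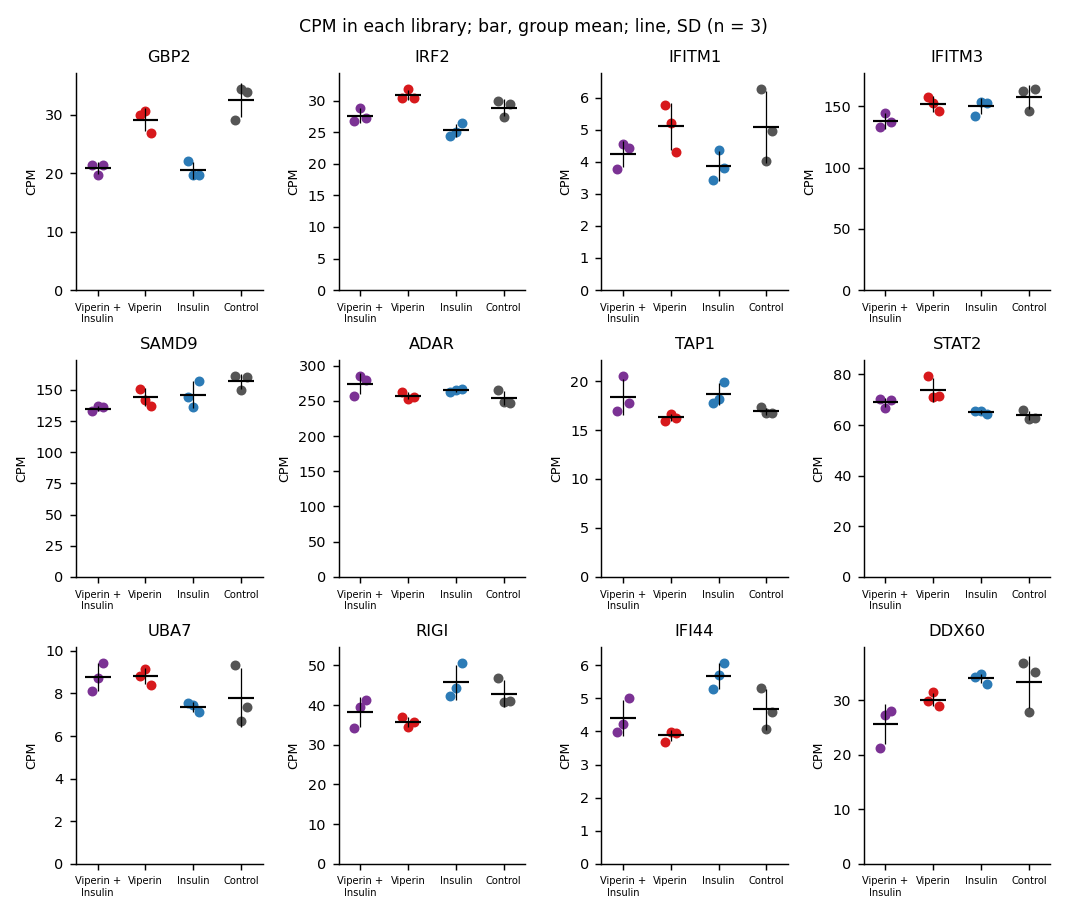
CPM in each library of the 11 members called in any comparison and of DDX60. Dots are libraries, bars are group means and lines are SD (n = 3), with axes from 0. The 6 insulin libraries of GBP2 (19.7 to 22.1 CPM) lie below its 6 vehicle libraries (26.9 to 34.4 CPM), while most other members overlap between conditions.

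The sensors of viral nucleic acid were RIGI, IFIH1, DHX58, IFI16 and DDX60. RIGI (chr9:32455302-32526208, minus strand), which detects viral RNA in the cytoplasm, was lower with the Viperin plasmid. It had 36.9, 34.4 and 35.7 CPM in Viperin, against 46.9, 40.9 and 41.0 CPM in Control. It had 34.1, 39.6 and 41.2 CPM in Viperin + Insulin, against 42.2, 44.2 and 50.6 CPM in Insulin. Within each insulin state the groups did not overlap. The log2 fold change was -0.26 ± 0.05 over both insulin states (adjusted p = 0.00188, edgeR), and its parts, -0.26 ± 0.07 in Viperin against Control (adjusted p = 0.0617) and -0.25 ± 0.07 in Viperin + Insulin against Insulin (adjusted p = 0.0525), did not pass alone.

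DDX60, a helicase that aids RIGI, had 21.3, 27.3 and 28.0 CPM in Viperin + Insulin, against 34.3, 34.7 and 33.0 CPM in Insulin. In vehicle it had 29.8, 31.4 and 29.0 CPM in Viperin, against 36.8, 27.9 and 35.2 CPM in Control, which overlapped. With insulin present the plasmid difference was -0.41 ± 0.11 (adjusted p = 0.0982, edgeR), and over both states it was -0.28 ± 0.08 (adjusted p = 0.0695). IFIH1, the sensor of long double-stranded RNA, had -0.12 ± 0.05 with the plasmid, and DHX58 and IFI16 had -0.03 ± 0.06 and -0.02 ± 0.03. All 5 sensors thus had a negative log2 fold change with the plasmid, as did 34 of the 51 members and 11444 of the 23041 genes tested. Those of DHX58 and IFI16 were smaller than their standard errors, and RIGI alone was called.

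The enzymes that act on RNA were OAS1, OAS2 and OAS3, which make the activator of RNase L, the kinase EIF2AK2, the editing enzyme ADAR and the exonuclease ISG20. ADAR had 257, 285 and 279 CPM in Viperin + Insulin, against 262, 252 and 256 CPM in Viperin, and 262, 266 and 267 CPM in Insulin, against 266, 248 and 247 CPM in Control. These values overlapped under both plasmids. ADAR was called with insulin over both plasmids, at 0.08 ± 0.03 (adjusted p = 0.0413, edgeR). The call was lost when any 1 of Control 2, Control 3, Insulin 2, Insulin 3, Viperin 2, Viperin 3, Viperin + Insulin 2 or Viperin + Insulin 3 was left out (adjusted p from 0.0607 to 0.175). EIF2AK2, with -0.01 ± 0.03 for insulin and -0.04 ± 0.03 for the plasmid, had among the smallest errors of the members.

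Of the ISG15 system, UBA7 (chr3:49805209-49813953, minus strand), the enzyme that activates ISG15, was higher with the Viperin plasmid. It had 8.82, 9.17 and 8.42 CPM in Viperin, against 9.35, 6.70 and 7.36 CPM in Control. It had 8.12, 8.74 and 9.43 CPM in Viperin + Insulin, against 7.53, 7.47 and 7.12 CPM in Insulin. Control 1 was the 1 empty vector library within the range of the plasmid libraries. The log2 fold change over both states was 0.22 ± 0.07 (adjusted p = 0.0368, edgeR), and it was not called without any 1 of Control 2, Control 3, Insulin 2, Insulin 3, Viperin 1, Viperin 2, Viperin + Insulin 2 or Viperin + Insulin 3 (adjusted p from 0.0612 to 0.166).

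ISG15 itself was not called. It had 18.6, 24.5 and 22.3 CPM in Viperin + Insulin, against 27.8, 33.0 and 31.2 CPM in Insulin, with no overlap, and 23.9, 22.0 and 24.0 CPM in Viperin, against 30.8, 23.4 and 21.4 CPM in Control, with overlap. With insulin present the log2 fold change was -0.49 ± 0.14 (adjusted p = 0.124, edgeR) and -0.30 ± 0.10 over both states (adjusted p = 0.137). HERC6 had -0.16 ± 0.06 with the plasmid, and USP18, which removes ISG15 and dampens the receptor, had -0.08 ± 0.10. USP18 has a near-identical copy in the genome, and since reads with several places were not counted, its level is uncertain.

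Of the membrane effectors, IFITM1 and IFITM3 fell with insulin. IFITM3 had 133, 145 and 137 CPM in Viperin + Insulin, against 158, 153 and 146 CPM in Viperin, and 142, 154 and 153 CPM in Insulin, against 163, 146 and 164 CPM in Control. The groups touched without overlap under the Viperin plasmid and overlapped under the empty vector. The log2 fold change was -0.11 ± 0.03 over both plasmids (adjusted p = 0.00933, edgeR) and -0.14 ± 0.04 in Viperin + Insulin against Viperin (adjusted p = 0.0357). The call in Viperin + Insulin against Viperin was lost without Viperin 1, Viperin 2, Viperin + Insulin 1 or Viperin + Insulin 3 (adjusted p from 0.12 to 0.23), and the pooled one without Viperin + Insulin 1 (adjusted p = 0.0509).

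IFITM1 had 3.78, 4.55 and 4.42 CPM in Viperin + Insulin, against 5.77, 5.22 and 4.32 CPM in Viperin. It had 3.42, 4.36 and 3.80 CPM in Insulin, against 6.26, 4.02 and 4.97 CPM in Control. The values overlapped under both plasmids. Insulin over both plasmids gave -0.33 ± 0.09 on the log2 scale (adjusted p = 0.0114, edgeR), which was not called without Control 1 or Viperin 1 (adjusted p = 0.0719 and 0.0609), the highest vehicle library under each plasmid. IFITM2, the third of the cluster, had -0.03 ± 0.04. These genes are close in sequence, so reads shared among them were not counted. LY6E had -0.10 ± 0.04 with insulin, PLSCR1 had 0.01 ± 0.04 and BST2, which tethers virus particles, had 0.04 ± 0.30.

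SAMD9, a restriction factor of poxviruses, was the 1 member called with both insulin and the plasmid. It had 133, 137 and 136 CPM in Viperin + Insulin, 151, 142 and 137 CPM in Viperin, 144, 136 and 157 CPM in Insulin and 161, 150 and 160 CPM in Control. All Control libraries were above all Viperin + Insulin libraries, and Insulin overlapped with both. Viperin overlapped with Control and touched Viperin + Insulin at 137 CPM. Insulin gave -0.10 ± 0.03 (adjusted p = 0.0203, edgeR) and the plasmid -0.12 ± 0.03 (adjusted p = 0.00606). The insulin call was lost without Insulin 2, Viperin 1 or Viperin + Insulin 1 (adjusted p = 0.131, 0.101 and 0.0684) and the plasmid call without Insulin 3 (adjusted p = 0.0758). Its paralog SAMD9L had -0.01 ± 0.05 and -0.06 ± 0.05.

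IFI44, an interferon-induced protein of the cytoplasm, was lower with the plasmid. It had 3.97, 4.22 and 5.01 CPM in Viperin + Insulin, against 5.28, 5.70 and 6.07 CPM in Insulin, with no overlap. It had 3.68, 3.98 and 3.96 CPM in Viperin, against 5.33, 4.09 and 4.58 CPM in Control, also with no overlap. Over both states the fold change was -0.31 ± 0.09 on the log2 scale (adjusted p = 0.0147, edgeR), on 112 to 236 counts a library. It was not called without Control 1, Insulin 3 or Viperin + Insulin 1 (adjusted p = 0.0502, 0.0537 and 0.0593).

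Of the remaining interferon-induced proteins none was called. IFI6, an inhibitor of cell death and of flavivirus replication, had 21.7, 27.9 and 28.0 CPM in Viperin + Insulin, 30.9, 27.7 and 23.7 CPM in Viperin, 19.9, 26.6 and 26.6 CPM in Insulin and 26.2, 15.9 and 20.6 CPM in Control. All 4 groups overlapped, and 23.1% of its exon bases lie under a noncoding gene on the same strand. LGALS3BP had 275, 292 and 274 CPM in Viperin + Insulin, 300, 280 and 292 CPM in Viperin, 267, 286 and 277 CPM in Insulin and 300, 265 and 275 CPM in Control, and its log2 fold changes were -0.03 ± 0.03 with insulin and 0.04 ± 0.03 with the plasmid. SP110, a nuclear body protein, had 30.5, 35.7 and 33.9 CPM in Viperin + Insulin, 34.0, 30.9 and 31.8 CPM in Viperin, 32.4, 31.5 and 35.6 CPM in Insulin and 35.4, 34.1 and 37.3 CPM in Control. For these 3 genes the widest fold within a group was larger than the fold between group means. IFI35, XAF1 and EPSTI1 had -0.10 ± 0.04, 0.20 ± 0.13 and 0.13 ± 0.07 with insulin.

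TAP1, which carries peptides into the endoplasmic reticulum for antigen presentation, rose with insulin. It had 16.9, 20.5 and 17.8 CPM in Viperin + Insulin, against 15.9, 16.6 and 16.2 CPM in Viperin. It had 17.8, 18.2 and 19.9 CPM in Insulin, against 17.4, 16.7 and 16.7 CPM in Control. Insulin libraries lay above vehicle libraries under each plasmid, with Viperin + Insulin 1 close to the vehicle range. Insulin over both plasmids gave 0.16 ± 0.05 on the log2 scale (adjusted p = 0.0269, edgeR), and it was not called without Control 2, Insulin 3, Viperin 1 or Viperin + Insulin 2 (adjusted p = 0.0503, 0.121, 0.0677 and 0.152).

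Beside the barely counted chemokines, 2 groups of members held no gene called in any comparison. The TRIM ubiquitin ligases TRIM5, TRIM21, TRIM22 and TRIM25 ranged between -0.10 and -0.01 with insulin and between -0.04 and 0.17 with the plasmid. PARP9 with its partner DTX3L, and the ADP-ribosyltransferases PARP12 and PARP14, ranged between -0.01 and 0.03 with insulin and between -0.01 and 0.08 with the plasmid. The standard errors of PARP9, PARP14 and DTX3L were 0.03 to 0.04.

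By direction, 2 members rose with insulin over both plasmids (ADAR and TAP1, background 5.76%) and 5 fell (GBP2, IRF2, IFITM1, IFITM3 and SAMD9, background 5.97%). With the plasmid 2 rose (STAT2 and UBA7, background 4.47%) and 3 fell (RIGI, IFI44 and SAMD9, background 3.49%). For the difference of the insulin responses between plasmids, edgeR called 0 members and 0% of all genes, 2 members (3.92%) had an unadjusted p under 0.05, against 5.63% of genes, and DESeq2 called 0 members. The members with the smallest p there were STAT2, GBP2 and SP110 (0.15 ± 0.08, adjusted p = 0.89).

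Related genes were read beside them. Of the 6 genes of the IFIT family with HERC5 and OASL, 4 were called lower with the Viperin plasmid over both states and none higher. Of all genes 3.49% were called lower. OASL had -0.63 ± 0.07 (adjusted p = 2.92e-05, edgeR), HERC5 -0.37 ± 0.05, IFIT2 -0.36 ± 0.04 and IFIT3 -0.27 ± 0.04. The median of the 6 genes was -0.315, while that of the 51 members was -0.034. Of 10 interferon genes IFNA1, IFNA2, IFNK, IFNW1 and IFNG had 0 counts in all libraries, IFNB1 had 0 to 3 counts and IFNE had 14 to 28 counts.

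Of 9 receptor and kinase genes IFNGR1 rose with the plasmid (0.15 ± 0.04) and with insulin (0.12 ± 0.04), and JAK1 fell with insulin (-0.12 ± 0.03). Of 9 adaptors MAVS, which relays the RIGI signal, fell with both (-0.14 ± 0.03 with the plasmid and -0.13 ± 0.03 with insulin) and STING1 fell with insulin (-0.19 ± 0.06). Of 16 genes of antigen processing HLA-B and B2M were among those that rose with the plasmid (0.23 ± 0.07 and 0.10 ± 0.03), and TAP1 was not called there (-0.04 ± 0.05). All of these were called by edgeR at an adjusted p between 3.01e-04 and 0.0429, except TAP1. With insulin over both plasmids 4 of the 16 antigen processing genes were called, all lower, while TAP1, outside that list, was called higher. Over all genes 7.96% were called with the plasmid and 11.7% with insulin.

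All 7 mesenchymal markers were called with the Viperin plasmid, 6 of them higher and VIM lower, while 7.96% of all genes were called. Their summed level was 4290 to 4520 CPM in Viperin + Insulin and 4400 to 4500 CPM in Viperin, against 3990 to 4060 CPM in Insulin and 3920 to 4200 CPM in Control. The part of this shift in the plasmid differences of STAT2, RIGI, UBA7, IFI44 and SAMD9 was not tested. Of 6 epithelial markers 1 was called with the plasmid, lower, and 2 had a positive and 4 a negative log2 fold change. Immune markers summed to 5.74 to 7.68 CPM over all libraries, with CD14 at 4.52 to 5.80 CPM.

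Within groups, the members went up and down together from library to library. In Viperin + Insulin 1, 44 of the 51 members were below the mean of their own group, and 40 were the lowest of the 3 libraries, against 33.4% of all genes. In Insulin 1, 42 members were below their group mean, in Control 2, 40, and in Viperin 3, 38. In Viperin 1, Viperin + Insulin 2 and Insulin 3, 39 members each were above it. The share of all genes above their group mean was 47.3% to 52.2% in every library, and each group had at least 1 library in which most members were high and 1 in which most were low.

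**Figure D4:**
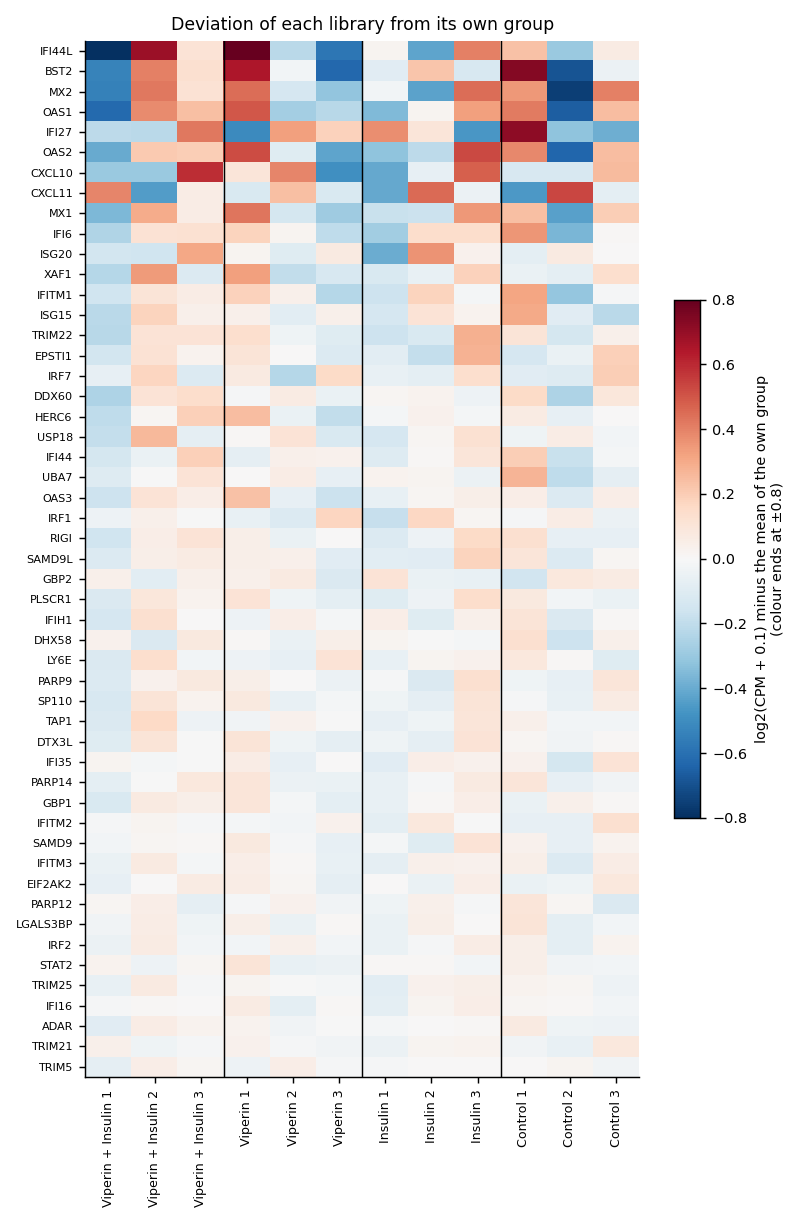
Deviation of each library from the mean of its own group, as log2(CPM + 0.1), for the 51 tested members in falling order of spread. Red is above and blue below the group mean, and colours end at ±0.8. Viperin + Insulin 1 and Control 2 are mostly blue and Viperin 1 and Control 1 mostly red.

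The spread was widest in BST2, MX2, OAS1, OAS2 and MX1, followed by IFI6, ISG20, XAF1 and IFITM1, which were singled out after their values were seen as members with a mean of at least 50 counts and an SD within groups of at least 0.2 on the log2 scale. They were 9 of the 47 members with such counts (19.1%), and 7.04% of the 12556 genes with such counts had that spread. BST2 had 1.10, 2.19 and 1.80 CPM in Viperin + Insulin, 3.13, 1.94 and 1.24 CPM in Viperin, 2.30, 2.89 and 2.24 CPM in Insulin and 2.90, 1.02 and 1.65 CPM in Control. MX1 had 21.7, 34.3 and 29.1 CPM in Viperin + Insulin, 31.3, 21.1 and 19.1 CPM in Viperin, 25.3, 25.4 and 36.5 CPM in Insulin and 28.5, 17.8 and 27.6 CPM in Control. Both were high in Viperin 1 and Control 1 and low in Viperin + Insulin 1, Viperin 3 and Control 2. In the Insulin group they parted, and Insulin 3 was the highest library for MX1 (36.5 CPM) and the lowest for BST2 (2.24 CPM).

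OAS1 varied 2.14-fold and BST2 2.83-fold within the Control group, more than the 1.16-fold and 1.46-fold between their highest and lowest group means. For 39 of the 47 members with a mean of at least 50 counts (83.0%) the widest fold within a group exceeded the fold between group means, and for 69.5% of all genes with such counts it did. Members had a larger spread than other genes of like counts. Between 1000 and 5000 counts the median SD was 0.088 for 15 members and 0.055 for 4992 genes. Between 200 and 500 counts it was 0.172 for 7 members and 0.109 for 1822 genes. The gap was narrower between 500 and 1000 counts, with 0.092 for 12 members and 0.079 for 1996 genes. Between 50 and 200 counts it was 0.228 for 8 members and 0.182 for 2151 genes, and from 5000 to 20000 counts 0.067 and 0.043. Control 1 and Viperin 3, with the highest shares of multimapped reads (13.9% and 12.1%), were on opposite sides, and a part of depth or mapping in this pattern was not tested.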

How the data were processed

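Poly(A) RNA-seq libraries of 12Z cells (4 groups, 3 libraries each) were analysed from the deposited tables of counts. The authors made them with STAR, which both aligned the reads to hg38 and counted pairs for each gene after trimming by Trim Galore and cutadapt (tool versions: not given in the sources used here). Counts are raw, unpooled and unfiltered, and the reverse-strand column was used. Lines for unmapped, multimapped and unassigned reads (20.6% to 24.9% of pairs not assigned) stayed out of library sizes. The empty vector is pCAG in the sample labels but pBabe in the treatment text. Symbols and lengths came from GENCODE release 44 (60357 of 60617 IDs matched), which may differ from the annotation used for counting, and TPM used the summed exon length.

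The 23041 genes that averaged 1 count or more were kept and scaled by TMM. The means of the 4 groups were estimated in a single robust quasi-likelihood fit of edgeR 4.0.16 (R 4.3.3, prior count of 2), with Benjamini-Hochberg adjustment over all genes and a threshold of 0.05. The fit was checked on simulated data, with genes drawn independently and the same dispersion for all. That check did not cover genes that vary together, or folds as small as most of those called here. Members named with values in every library are those called, the 3 with the smallest p in each comparison and the 5 with the highest TPM, beside BST2 and MX1, which were chosen for their spread after their values were seen. Some genes of the related lists are not reported here. The members and lists were chosen with earlier results of these data known. Alternatives were DESeq2 1.42.0, RLE size factors, a replicate block, no filter, fits of only the groups compared, unstranded counts, each library left out, and Control 1 with Viperin 3 left out together, the last chosen after seeing the data. Plots used matplotlib 3.10.9 under Python 3.11.15, and tables pandas 2.3.3 with numpy 2.4.6.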

Additional observations from a re-analysis of the deposited data

How the results depend on the processing

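The 17 calls of a member in a comparison were refitted 311 times in all. In 261 the call was kept, in 50 it fell short of the threshold, and in 0 did the direction turn. The calls of GBP2 in all 3 insulin comparisons, of IRF2 with insulin over both plasmids, and of RIGI and STAT2 with the plasmid over both insulin states were kept under every alternative run. The number of members called changed as follows. In Viperin against Control, where 1 was called, it was 2 with DESeq2, with no filter, with unstranded counts, with the replicate block, with only the groups compared and without Control 1 and Viperin 3 together (1.98%, 2.04%, 2.15%, 2.12%, 1.02% and 4% of all genes tested in the same fits). In Insulin against Control, where 2 were called, DESeq2 called 1 (4.54% of genes). In Viperin + Insulin against Viperin, where 2 were called, DESeq2 called 1 (4.04% of genes) and the fit of only the groups compared called 4 (6.73%). In Viperin + Insulin against Insulin, where 0 were called, RLE size factors, unstranded counts and the replicate block gave 1 each (3.17%, 2.81% and 3.08% of genes), DESeq2 and no filter gave 3 each (2.51% and 2.52%), the fit of only the groups compared gave 8 (7.65% of genes), and leaving out Control 1 and Viperin 3 gave 5 (5.13% of genes), all 8 and all 5 lower with the plasmid. For the difference of the insulin responses, leaving out Control 1 and Viperin 3 gave 1, BST2 (0.146% of genes). With the Viperin plasmid over both states no filter gave 8 in place of 5 (5.57% of genes). Calls lost outside the left-out libraries were IRF2 in Insulin against Control with DESeq2, no filter, only the groups compared and without Control 1 and Viperin 3 (adjusted p = 0.056, 0.0516, 0.0724 and 0.112), IFITM3 in Viperin + Insulin against Viperin with DESeq2 (0.0858), SAMD9 and ADAR with insulin under DESeq2 (0.0587 and 0.0607), UBA7 with DESeq2 (0.0893), TAP1 with unstranded counts (0.0628), ADAR with the replicate block (0.0527) and IFI44 without Control 1 and Viperin 3 (0.0549). The causes were not tested.

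With 1 library left out at a time, the counts ranged from 1 to 2 in Viperin against Control (2 without Control 1, Insulin 1, Insulin 3, Viperin + Insulin 1 or Viperin + Insulin 3), 1 to 3 in Insulin against Control (1 without Control 3, Insulin 1 or Insulin 2), 1 to 3 in Viperin + Insulin against Viperin (1 without Viperin 1, Viperin 2 or Viperin + Insulin 1), 0 to 4 in Viperin + Insulin against Insulin (4 without Viperin + Insulin 3, 3 without Control 1 or Insulin 1, and 1 without Control 2 or Viperin + Insulin 1), 0 to 1 for the difference (1 without Control 1), 4 to 8 with insulin over both plasmids (4 without Viperin 1) and 2 to 6 with the plasmid over both states (2 without Insulin 3, RIGI and STAT2). Numbers did not pair the samples. Deviations of same-numbered libraries from their group means correlated between -0.085 and 0.067 over 18 pairs, and the replicate block otherwise moved no count by more than 1.5 times.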

Other observations

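Among members with a mean of at least 50 counts, BST2, MX2, OAS1, OAS2 and MX1 had the widest spread. These 5 deviated from their group means in the same direction in Viperin + Insulin 1 (-0.36 to -0.62), Viperin 1 (0.43 to 0.65) and Control 2 (-0.44 to -0.75), on the log2 scale. In Control 1 they were 0.24 to 0.73 above their group mean. Counts of RSAD2 from its own locus and from the plasmid cannot be told apart in the Viperin libraries. In the empty vector libraries it had 3.01, 3.82 and 5.19 CPM in Insulin and 3.48, 2.28 and 2.99 CPM in Control.

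Of the IFIT, HERC5 and OASL list, which was read beside the members, 2 genes are given by library. IFIT2 had 54.0, 56.8 and 57.5 CPM in Viperin + Insulin, 54.7, 57.4 and 65.5 CPM in Viperin, 71.0, 71.3 and 79.0 CPM in Insulin and 72.6, 70.9 and 77.7 CPM in Control. OASL had 14.3, 16.7 and 18.3 CPM in Viperin + Insulin, 16.4, 19.9 and 18.9 CPM in Viperin, 27.3, 31.8 and 28.5 CPM in Insulin and 26.7, 21.4 and 26.6 CPM in Control. In both genes all 6 plasmid libraries lay below all 6 empty vector libraries.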
